A study of Mus musculus with 13 samples.

Results

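The genes described here are the nociceptin receptor Oprl1, the classical opioid receptors Oprm1, Oprd1 and Oprk1, and the peptide precursors Pnoc, Pdyn and Penk, measured by RNA-seq in the cortex of male mice. They were found by symbol in the authors' comparison tables, which list 17562 genes in all. All 7 stand in the table of Grn-/-;GRNtg against Grn+/-, and 6 stand in each of the others, where Oprm1 is not listed. The list was drawn up by function with earlier results of these data known, and Oprl1 was selected on its log2 fold change, for its higher value in Grn+/- against wild type.

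The study compared 3 genotypes at 18 months of age: 4 mice with 1 copy of mouse Grn (Grn+/-), 4 mice labelled as lacking both copies of mouse Grn and having a transgene of human GRN (Grn-/-;GRNtg), and 5 wild-type mice (Grn+/+). Progranulin, its product, is a glycoprotein found in lysosomes and outside the cell. All 13 mice were males of that age, and each is a library of its own. The labels do not name the strain, the promoter of the transgene, the dissection or a litter, and values per mouse were not used here, so overlap between groups cannot be described. Everything below on single genes is a mean over libraries or a fold change with its standard error (SE), as the authors deposited them.

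Opioid receptors couple to inhibitory G proteins (Gi/o), which open inwardly rectifying potassium channels, close presynaptic calcium channels and lower cyclic AMP. Enkephalins from Penk act mainly at the delta receptor (Oprd1) and the mu receptor (Oprm1), dynorphins from Pdyn at the kappa receptor (Oprk1), and nociceptin from Pnoc at Oprl1, which has little affinity for the classical opioid peptides. In rodent cortex the precursors are made mainly by interneurons, whereas Penk and Pdyn are far more abundant in the neighbouring striatum.

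The coding sequence shows what sets nociceptin apart from the other peptides. Classical opioid peptides begin with the codons for tyrosine, glycine, glycine and phenylalanine, and nociceptin begins with phenylalanine in place of tyrosine. In the GENCODE M21 transcripts (GRCm38), Penk held 6 Met-enkephalin units and 1 Leu-enkephalin unit, Pdyn held 3 Leu-enkephalin units, and Pnoc held 1 nociceptin start. The codons before every unit encoded a pair of basic residues, the kind of site that prohormone convertases cut. Below, 1 copy of each kind is shown from 5′ to 3′, with the first codon in capitals because that codon separates nociceptin from the others.
Penk, copy 1 (Met-enkephalin): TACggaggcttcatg
Penk, copy 6 (Leu-enkephalin): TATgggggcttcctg
Pdyn, copy 2 (Leu-enkephalin): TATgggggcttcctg
Pnoc, nociceptin start: TTTgggggcttcacc
The Leu-enkephalin copy shown for Pdyn had the same letters as the single one of Penk, whereas Pdyn copies 1 and 3 had other letters.

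Levels differed widely between these genes. Per kilobase of annotated exon, Penk averaged 589 normalized counts over all 13 libraries in the authors' deposited tables, ahead of Oprl1 at 205 and Pdyn at 155. Oprd1 followed at 109.6 and Pnoc at 78.5. Oprk1, at 8.49, was 9.25-fold below Pnoc, and Oprm1, at 0.481, was 17.6-fold below Oprk1 in the authors' deposited tables. Oprl1 was thus the most abundant of the receptors and stood 1.32-fold above Pdyn, the next gene in the order. Steps between neighbours from Oprl1 down to Pnoc were 1.32-fold to 1.42-fold, and since the spread between mice of these means is not known, those neighbours cannot be called different. The order was the same per kilobase of coding sequence, but some steps were not, with Pnoc 3.90-fold above Oprk1 and Penk 1.71-fold above Oprl1, beside 9.25-fold and 2.87-fold per kilobase of exon.

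Each gene has its own locus in GENCODE M21 (GRCm38). Penk lies on chromosome 4 from 4133531 to 4138819 on the minus strand, in 3 exon blocks. Pdyn lies on chromosome 2 from 129686565 to 129699844, also on the minus strand, and Pnoc on chromosome 14 from 65400673 to 65425472 on the minus strand. Among the receptors, Oprd1 spans 132110726 to 132144486 of chromosome 4 on the minus strand and Oprk1 spans 5588466 to 5606131 of chromosome 1 on the plus strand. Oprm1 is by far the longest, at 279693 bases and 22 exon blocks, from 6758506 to 7038198 of chromosome 10 on the plus strand.

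**Figure D1:**
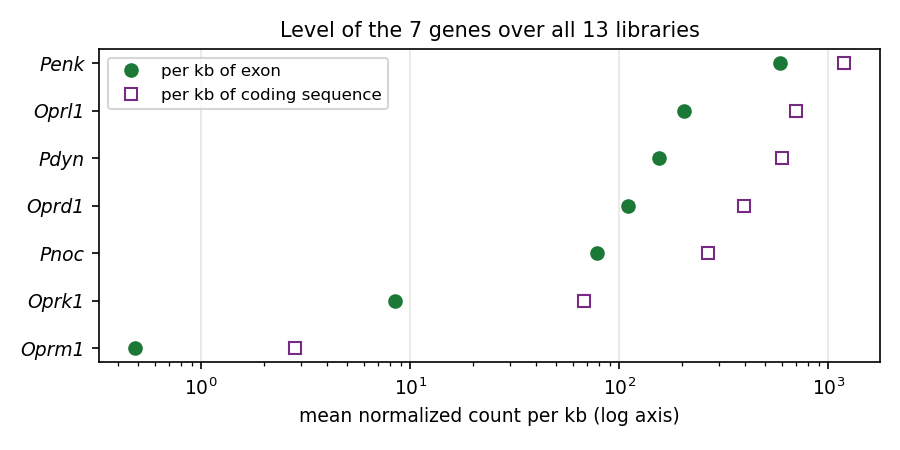
Mean normalized count of each gene over all 13 libraries, per kb of annotated exon (circles) and per kb of coding sequence (squares), on a log axis. Penk is the highest at 589 per kb of exon, Oprl1 the highest receptor at 205, and Oprm1 the lowest at 0.481.

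Without correction for length, the mean normalized count was 963 for Penk, 769.9 for Oprl1, 449 for Pdyn, 441 for Oprd1, 169 for Pnoc, 77.7 for Oprk1 and 3.87 for Oprm1 in the authors' deposited tables. Penk thereby exceeded 75.3% and Oprl1 exceeded 70.7% of the genes listed, and Oprm1 exceeded 11.2%. At that count Oprm1 is at the edge of what these libraries resolve. Its absence from the comparisons with wild type goes with their higher floor, since the lowest mean normalized count listed was 24.7 for Grn+/- against wild type and 6.83 for Grn-/-;GRNtg against wild type in the authors' deposited tables. Cortical excitatory neuron markers were looked up, and all 10 were listed, with mean normalized counts between 505 and 79958 in the authors' deposited tables. Being listed does not check the labels' tissue. All 13 striatal markers and all 9 of hypothalamus and thalamus were also listed between the mutant groups. The Grn row was at 63.6% of the wild-type level in Grn+/- and at 24.7% in Grn-/-;GRNtg in the authors' deposited tables. These percentages come from the deposited fold changes, and would be lower if the authors' processing drew fold changes towards 0, which is not stated. The Grn row was lower in both, as the labels have it, but not near 0 in Grn-/-;GRNtg on the deposited scale. In these tables reads of the human transgene and of the mouse locus cannot be told apart.

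Oprl1 lies on chromosome 2, from 181715016 to 181720985 on the plus strand (GRCm38), with 7 blocks of exon in a span of 5970 bases, and no other annotated gene overlaps it. Its level was higher in Grn+/- than in wild type, by 0.33 ± 0.069 on the log2 scale (SE, adjusted p = 0.00020) by the authors' deposited table. This is 126% of the wild-type level, with a 95% interval of 0.20 to 0.47 on the log2 scale from the deposited SE. By the Wald statistic, the log2 fold change over its SE, it ranked 6 among the higher genes of that table. These values chose the gene and are given as a description. In bulk tissue, more RNA per cell and more cells that carry the RNA cannot be told apart.

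In Grn-/-;GRNtg the level of Oprl1 was also above wild type, by 0.32 ± 0.069 on the log2 scale (adjusted p = 0.00078) by the authors' deposited table. That is 125% of the wild-type level, with a 95% interval of 0.18 to 0.45, and rank 26 among the higher genes. The same 5 wild-type mice stand under both comparisons, so the second value is not independent of the first, and the Grn+/- mice stand under the first and under the direct comparison of the mutants. Set directly against Grn+/-, the level in Grn-/-;GRNtg differed by -0.01 ± 0.071 on the log2 scale, adjusted p = 0.98, by the authors' deposited table. The 95% interval of that difference ran from -0.15 to 0.12. Differences beyond these bounds between the mutant groups lie outside the interval, and smaller ones were not resolved.

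**Figure D2:**
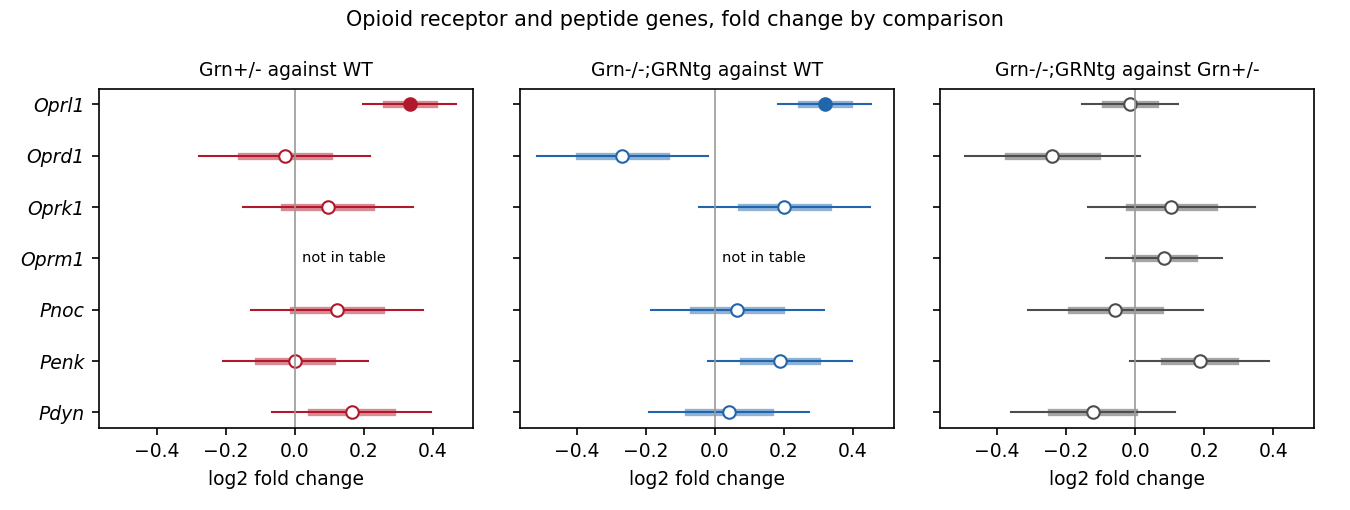
log2 fold change of the opioid genes (rows) in the 3 comparisons (panels), as deposited. Points are filled where adjusted p was under 0.05, thick bars are ± 1 SE and thin bars the 95% interval. Oprl1 is the filled point at 0.33 in Grn+/- and at 0.32 in Grn-/-;GRNtg against wild type, and its interval spans 0 between the mutant groups.

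A gene was called where the authors' adjusted p was under 0.05. Of the 6 opioid genes listed, 1 was called in Grn+/- against wild type, where 6.8% of all genes were (2.29% higher and 4.51% lower), and that gene is Oprl1, which the choice of members fixed. Likewise 1 of 6 was called in Grn-/-;GRNtg against wild type, where 4.87% of all genes were (1.81% higher and 3.05% lower). Between the mutant groups 0 of 7 were called by the authors' Wald test, and 0 had an unadjusted p under 0.05, where 0.467% of all genes were called (0.319% higher and 0.148% lower). The median log2 fold change of the members listed was 0.11, 0.13 and -0.01 in these comparisons in the authors' deposited tables. Oprl1, selected on its value, is part of these medians, and without it they were 0.096, 0.065 and 0.013. Over all genes the medians were 0.0082, 0.0050 and 0.0014. The call of Oprl1 did not hold where the Wald statistics were divided by their robust spread over the table (1.49 and 1.56 against wild type), which gave adjusted p = 0.19 in Grn+/- and 0.64 in Grn-/-;GRNtg.

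Oprd1, the delta receptor, had the lowest fold changes of the group. In Grn-/-;GRNtg against wild type it was at -0.27 ± 0.127, with an unadjusted p of 0.034 and adjusted p = 0.20 by the authors' deposited table, so it was not called. Against Grn+/- the Grn-/-;GRNtg value was -0.24 ± 0.129 (adjusted p = 0.59), and Grn+/- against wild type gave -0.03 ± 0.127 (adjusted p = 0.93) by the authors' deposited tables. The 95% interval in Grn-/-;GRNtg against wild type ran from -0.52 to -0.02, so a change of the same size as that of Oprl1, but downward, lies inside it.

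Oprk1, the kappa receptor, had positive values that did not pass. It was at 0.10 ± 0.126 in Grn+/- and at 0.20 ± 0.126 in Grn-/-;GRNtg against wild type, with adjusted p = 0.73 and 0.36 in the authors' deposited tables. Between the mutant groups it was at 0.11 ± 0.123 with adjusted p = 0.89 by the authors' deposited table. In mouse forebrain Oprk1 is known from the claustrum and deep cortical layers, so markers of claustrum and layer 6b were set beside it. All 7 markers were positive in Grn-/-;GRNtg against wild type, with a median of 0.26 in the authors' deposited table, and all 7 were positive against Grn+/-, with a median of 0.23. None passed by the authors' Wald test, with 5 and 4 at an unadjusted p under 0.05. Their part in the value of Oprk1 was not tested.

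Oprm1, the mu receptor, could be read only between the mutant groups, at 0.08 ± 0.086 with adjusted p = 0.86 by the authors' deposited table. A mean normalized count of 3.87 is little evidence for either direction. Part of its annotation also overlaps Ipcef1 on the opposite strand, with 96 bases of exon in common, and Ipcef1 was at -0.03 ± 0.113 between the mutants by the authors' deposited table. Whether reads were assigned by strand could not be read from the tables.

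Pnoc, the precursor of the peptide that Oprl1 binds, was at 0.12 ± 0.127 in Grn+/- and at 0.07 ± 0.127 in Grn-/-;GRNtg against wild type, with adjusted p = 0.65 and 0.81 in the authors' deposited tables. Its 95% interval in Grn+/- ran from -0.13 to 0.37 and holds the value of its receptor, so a change of that size in Pnoc is neither shown nor outside the range. Between the mutant groups Pnoc was at -0.06 ± 0.130, adjusted p = 0.96, by the authors' deposited table.

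Penk and Pdyn did not pass either. Penk, the enkephalin precursor, was at 0.0020 ± 0.107 in Grn+/- and at 0.19 ± 0.107 in Grn-/-;GRNtg against wild type, with adjusted p = 1.00 and 0.31 in the authors' deposited tables. Grn-/-;GRNtg against Grn+/- gave 0.19 ± 0.103 for Penk, adjusted p = 0.605, by the authors' deposited table. An antisense transcript, A830012C17Rik, shares 233 bases of exon with Penk. Pdyn, the dynorphin precursor, was at 0.16 ± 0.118 in Grn+/- and at 0.04 ± 0.118 in Grn-/-;GRNtg against wild type, with adjusted p = 0.45 and 0.88 in the authors' deposited tables. Pdyn between the mutant groups was at -0.12 ± 0.121, adjusted p = 0.85, by the authors' deposited table.

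Striatal medium spiny neurons express Penk and Pdyn at high levels, so their markers were set beside these genes. In Grn-/-;GRNtg against Grn+/-, 11 of 13 striatal markers were positive with a median of 0.17, and 0 were called, with 3 at an unadjusted p under 0.05, by the authors' deposited table. Against wild type 11 of 12 were positive in Grn-/-;GRNtg (median 0.13) and 2 of 12 in Grn+/- (median -0.06), with 0 called and 0 at an unadjusted p under 0.05 in the authors' deposited tables. In the direct comparison the marker median had the sign of Penk and not that of Pdyn. Against wild type it had the sign of both in Grn-/-;GRNtg, and of neither in Grn+/-, where Penk was at 0.0020. The part of the markers in the values of Penk and Pdyn was not tested. None of these markers was at 0, and their mean normalized counts lay between 6.51 and 2614 in the authors' deposited table of the mutant groups. Interneuron markers, the other source of the precursors, were positive in 12 of 13 in Grn+/- and in 10 of 13 in Grn-/-;GRNtg against wild type, with medians of 0.08 and 0.09 and 0 called in the authors' deposited tables. At an unadjusted p, 2 and 4 of them were under 0.05. Of them 6 of 13 were positive between the mutant groups (median -0.03), with 0 called and 1 at an unadjusted p under 0.05 in the authors' deposited table.

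The precision of these genes sets what could be seen. Oprl1 had the smallest SE among the 6 genes listed in the comparisons with wild type, at 0.069, where the others lay between 0.107 and 0.127 in the authors' deposited tables. At those SEs, a called gene would have needed an absolute log2 fold change of at least 0.31 to 0.37 in Grn+/- against wild type and 0.32 to 0.39 in Grn-/-;GRNtg against wild type. For Oprl1 0.20 and 0.21 were enough. The missing calls of Oprd1, Oprk1, Pnoc, Penk and Pdyn therefore leave changes below these sizes, on the deposited scale, unresolved. If the authors' processing drew fold changes towards 0, which is not stated, changes beyond these intervals could also have gone uncalled.

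**Figure D3:**
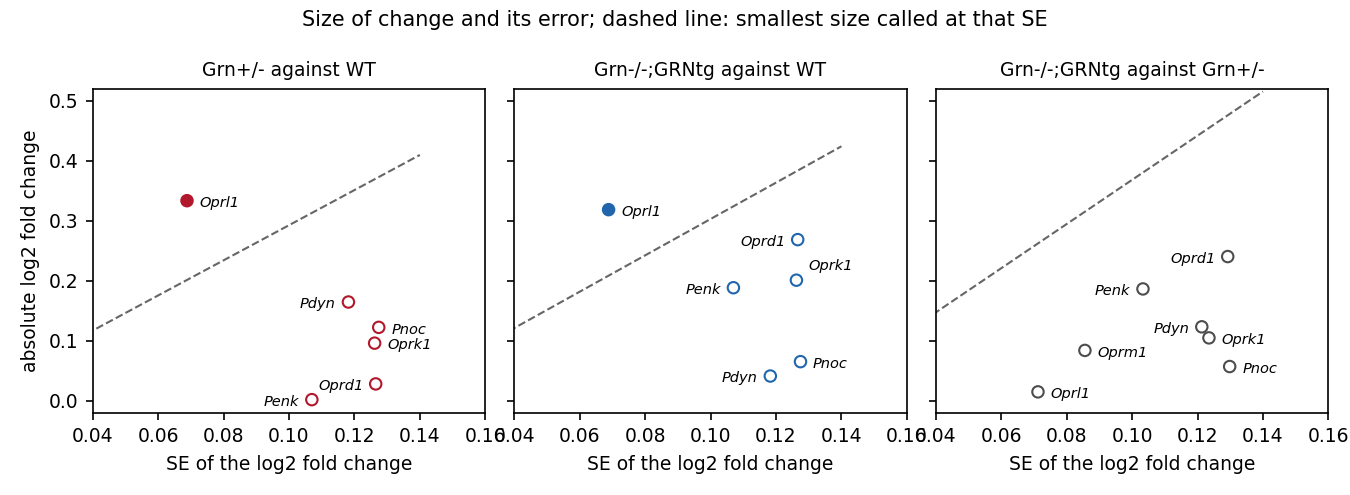
Absolute log2 fold change of each opioid gene against its SE in the 3 comparisons, both as deposited. The dashed line is the smallest size called at that SE, filled points were called, and Oprl1 sits above the line in the comparisons with wild type at an SE of 0.069 while all other points sit below it.

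The genes around Oprl1 were examined next, to see whether neighbours shared its shift. Within 100 kb of Oprl1, 9 other genes are annotated and 5 are listed in the tables. Called among them in any table were 0, by the authors' Wald test, and 0 and 2 had an unadjusted p under 0.05 in Grn+/- and in Grn-/-;GRNtg relative to wild type, with 0 between the mutants. Rgs19, which encodes a regulator of Gi signalling, starts on the opposite strand, 21038 bases before the first base of Oprl1, and was at -0.03 ± 0.100 in Grn+/- and 0.14 ± 0.099 in Grn-/-;GRNtg against wild type in the authors' deposited tables. Tcea2, an elongation factor gene, was at 0.02 ± 0.069 and 0.04 ± 0.069 in these comparisons, with an SE as small as that of Oprl1, in the authors' deposited tables. Prpf6, a splicing factor gene, was at 0.09 ± 0.054 and 0.11 ± 0.054, and Sox18 at -0.10 ± 0.136 and 0.03 ± 0.136 in the authors' deposited tables. Myt1, on the other side, was at 0.04 ± 0.132 in Grn+/- and at 0.29 ± 0.131 (adjusted p = 0.18) in Grn-/-;GRNtg in the authors' deposited tables.

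The bases before the start of Oprl1 are shown beside those of Oprd1, since these receptors had the highest and the lowest value in Grn-/-;GRNtg against wild type. Each window holds the 250 bases before the RefSeq start (GRCm38.p6), written 5′ to 3′ on the strand of the gene, at chr2:181714766-181715015 on the plus strand for Oprl1 and at chr4:132144487-132144736 on the minus strand for Oprd1. Capitals mark matches to the motifs described next. RefSeq lists 3 starts for Oprl1, and the first is shown.
Oprl1: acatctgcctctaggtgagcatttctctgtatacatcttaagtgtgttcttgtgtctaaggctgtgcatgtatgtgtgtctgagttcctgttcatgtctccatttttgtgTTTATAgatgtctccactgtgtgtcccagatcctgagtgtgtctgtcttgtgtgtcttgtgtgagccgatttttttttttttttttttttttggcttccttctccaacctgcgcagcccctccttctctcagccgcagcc
Oprd1: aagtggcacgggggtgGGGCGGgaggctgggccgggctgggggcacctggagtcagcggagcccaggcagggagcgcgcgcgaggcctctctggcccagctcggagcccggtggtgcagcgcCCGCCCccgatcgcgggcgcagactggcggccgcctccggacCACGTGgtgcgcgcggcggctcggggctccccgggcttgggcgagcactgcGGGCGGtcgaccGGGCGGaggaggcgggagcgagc

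The windows differ in composition. Oprl1 had 44.4% G and C and 3 CpG dinucleotides, whereas Oprd1 had 80.0% and 34, more G and C than 98.8% of the 32851 promoter windows of the table. Motifs were searched on either strand. The TATA box was read as TATAAA and the CCAAT box as its name. The GC box was read as GGGCGG and the E-box as CACGTG. The cyclic AMP response element was read as TGACGTCA, and the AP-1 site as TGANTCA, where N is any base. Oprl1 held 1 match, to TATAAA read on the other strand, a motif found in 12.4% of all windows. Oprd1 held 4 matches to GGGCGG, found in 32.7% of all windows, and 1 to CACGTG, found in 6.02%. No matches overlapped. RefSeq windows were found for 4 of the 7 genes (Oprl1, Oprd1, Oprm1 and Pdyn), and none of theirs held TGACGTCA or TGANTCA, which stood in 1.55% and 6.75% of all windows. A match or its absence describes these letters only.

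Genes with a pattern like that of Oprl1 were sought by the distance between log2 fold changes in the comparisons with wild type, over 11368 genes with a mean normalized count of at least 100. The nearest were Kdelc2 (distance 0.013), Cpne4 (0.019), Nxph1 (0.020), Pcdh20 (0.024) and BC021891 (0.034), over 2 fold changes from 3 groups that share the wild-type mice. Nxph1, a neurexin ligand gene, was called, at 0.32 ± 0.081 in Grn+/- (adjusted p = 0.0049) and 0.31 ± 0.081 in Grn-/-;GRNtg (adjusted p = 0.0076) against wild type in the authors' deposited tables. The other 4 were not called, with SEs between 0.116 and 0.137 in the authors' deposited tables. For instance Cpne4, which encodes a calcium-dependent membrane-binding copine, was at 0.32 ± 0.116 in Grn+/- (adjusted p = 0.067) and 0.33 ± 0.116 in Grn-/-;GRNtg (adjusted p = 0.065) against wild type in the authors' deposited tables.

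Beyond the members, genes of opioid peptide making, breakdown and signalling were taken from lists drawn up by function. The calls in these and the later lists stand beside the shares of all genes called. Those were 6.8% in Grn+/- and 4.87% in Grn-/-;GRNtg against wild type, and 0.467% between the mutant groups. Of 14 genes of peptide processing and dense-core vesicles, 2 rose and 2 fell in Grn+/- relative to wild type, and the list median was 0.05, by the authors' deposited table. Pcsk1, the prohormone convertase that makes early cuts in peptide precursors, fell by 0.53 (SE 0.120, adjusted p = 0.00084), and Cpd, a carboxypeptidase of the secretory pathway, fell by 0.29 (SE 0.077, adjusted p = 0.0080), by the authors' deposited table. The granins Chgb (0.20 ± 0.053, adjusted p = 0.0078) and Chga (0.25 ± 0.081, adjusted p = 0.032), matrix proteins of dense-core vesicles, rose in the authors' deposited table. Grn-/-;GRNtg against wild type gave 1 call among the 14, Chgb at 0.21 ± 0.053 with adjusted p = 0.0074 by the authors' deposited table, and the list median was 0.06. There Pcsk1 was at -0.24 ± 0.120 with adjusted p = 0.23, and the direct comparison of the mutant groups gave 0.30 ± 0.124 with adjusted p = 0.40 by the authors' deposited tables. Grn-/-;GRNtg against Grn+/- gave 0 calls of 14, with 1 at an unadjusted p under 0.05 and a median of -0.01 in the authors' deposited table.

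Among 11 peptide-degrading enzymes, Lnpep, an aminopeptidase, fell in both comparisons with wild type, by 0.67 (SE 0.138, adjusted p = 0.00018) in Grn+/- and by 0.53 (SE 0.138, adjusted p = 0.0076) in Grn-/-;GRNtg in the authors' deposited tables. It was the 1 gene of that list called in each, with 43.5 normalized counts on average, and the list medians were positive, at 0.06 and 0.08 in the authors' deposited tables. In the direct comparison of the mutants 0 of 11 were called or had an unadjusted p under 0.05, with a median of 0.05 in the authors' deposited table. Pomc, the precursor of beta-endorphin, averaged 25.2 normalized counts and was at 0.04 ± 0.129 in Grn+/- and 0.11 ± 0.129 in Grn-/-;GRNtg against wild type in the authors' deposited tables.

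Of the Gi/o proteins and effectors downstream of these receptors, 0 of 23 were called in Grn+/- against wild type by the authors' Wald test, with 5 at an unadjusted p under 0.05 and a median of 0.05 in the authors' deposited table. In Grn-/-;GRNtg against wild type 1 of 24 rose and 1 fell, with a median of 0.04 in the authors' deposited table. Gng2, a G protein gamma subunit, rose by 0.28 ± 0.074 (adjusted p = 0.0087), and Adcy1, the calcium-stimulated adenylyl cyclase, fell by 0.39 (SE 0.114, adjusted p = 0.022) by the authors' deposited table. The direct comparison of the mutants had 0 of 24 called, with 3 at an unadjusted p under 0.05 and a median of 0.02 in the authors' deposited table. Among 20 genes of receptor regulation (GRKs, arrestins, RGS proteins and receptor trafficking genes such as Gprasp1 and Dnm1), Rgs7, which speeds the turn-off of Gi/o proteins in neurons, rose in Grn+/- (0.26 ± 0.064, adjusted p = 0.0027) and in Grn-/-;GRNtg (0.22 ± 0.064, adjusted p = 0.025) against wild type in the authors' deposited tables. Adrbk1, the receptor kinase GRK2, fell by 0.20 (SE 0.064, adjusted p = 0.040) in Grn-/-;GRNtg in the authors' deposited table. No other gene of that list was called against wild type. The medians were -0.05 and 0.07, and between the mutant groups 0 of 20 were called, with 7 at an unadjusted p under 0.05 and a median of 0.08 in the authors' deposited tables.

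Other neuropeptide receptors were set beside Oprl1, and their calls against wild type were near the shares of all genes, 6.8% and 4.87%. Of 16 listed in Grn+/- against wild type, 1 was called: Sstr4, a somatostatin receptor, fell by 0.35 (SE 0.109, adjusted p = 0.029) by the authors' deposited table. In Grn-/-;GRNtg against wild type 1 of 17 was called: Tacr1, the substance P receptor, rose by 0.38 ± 0.123 (adjusted p = 0.047) with 39.4 normalized counts on average, by the authors' deposited table. Between the mutants 1 of 18 was called, Sstr4 at 0.45 ± 0.112 with adjusted p = 0.023 by the authors' deposited table. The medians of this list were -0.0049, 0.10 and 0.08 in the authors' deposited tables.

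Activity-regulated genes were listed because Penk and Pdyn are known to respond to neuronal activity through cyclic AMP and AP-1 signalling. Of 11, 8 fell in Grn-/-;GRNtg against wild type, among them Ier2 by 0.75 (SE 0.134, adjusted p = 2.0e-05) and Arc by 0.66 (SE 0.129, adjusted p = 0.00011), and the median was -0.54 in the authors' deposited table. Penk (0.19) and Pdyn (0.04) had positive values in that comparison, in the authors' deposited table. In Grn+/- 1 of 11 fell against wild type, Egr4 (named after its values were seen) by 0.47 (SE 0.129, adjusted p = 0.010), and the median was -0.22, by the authors' deposited table. Relative to Grn+/-, 2 of 11 were lower in Grn-/-;GRNtg, Ier2 (-0.78 ± 0.136) and Dusp1 (-0.59 ± 0.138), with a median of -0.33 in the authors' deposited table. The pathway lists together, with members and cell markers left out, held 8 called genes of 100 in Grn+/- against wild type, 15 of 102 in Grn-/-;GRNtg against wild type and 3 of 103 between the mutant groups, beside the 6.8%, 4.87% and 0.467% of all genes. The activity-regulated genes alone gave 1, 8 and 2 of these calls. With Wald statistics over their robust spread the pooled counts were 0, 0 and 1.

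**Figure D4:**
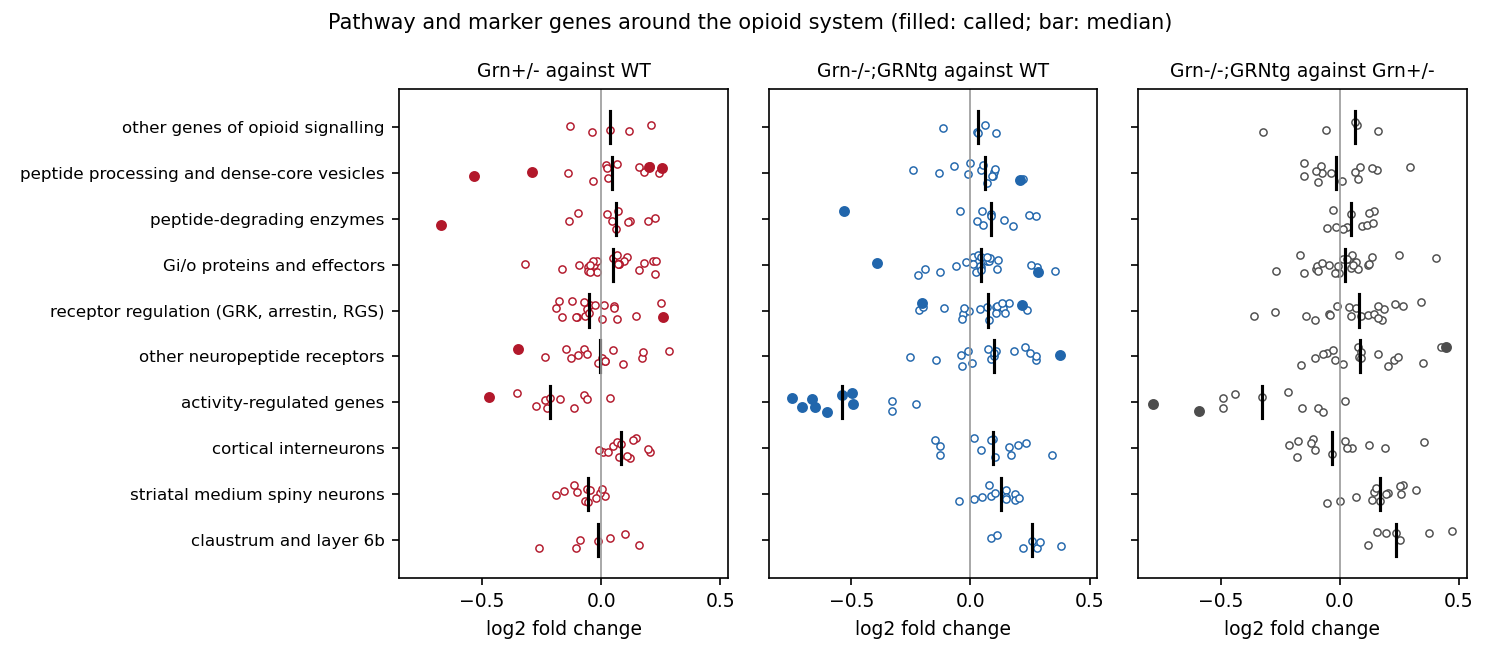
log2 fold change of each listed gene (points) by gene list (rows) in the 3 comparisons (panels), as deposited, with filled points called and black bars at the list median. The activity-regulated genes sit lowest, with a median of -0.54 in Grn-/-;GRNtg against wild type, and the claustrum and layer 6b markers are all above 0 in both comparisons of Grn-/-;GRNtg.

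Markers of hypothalamus and thalamus, where opioid peptides are also made (Pomc stands in this list), gave 0 calls of 4, 4 and 9 listed, with 1, 1 and 0 at an unadjusted p under 0.05 and medians of -0.05, -0.04 and -0.02 in the authors' deposited tables. Cortical excitatory neuron markers had 2 of 10 higher in Grn+/- against wild type, Rorb (0.37 ± 0.127, adjusted p = 0.048) and Emx1 (0.36 ± 0.115, adjusted p = 0.036), named here after their values were seen, as is Camk2a, by the authors' deposited table. Of the 10, 1 was lower in Grn-/-;GRNtg against wild type, Camk2a at -0.20 ± 0.055 with adjusted p = 0.018 by the authors' deposited table. The medians of that list were -0.03 and -0.01 against wild type, and their part in the value of Oprl1 was not tested. Set against Grn+/-, Grn-/-;GRNtg had 0 of 10 called, with 2 at an unadjusted p under 0.05 and a median of -0.06 in the authors' deposited table. Claustrum and layer 6b markers had 3 of 7 positive in Grn+/- against wild type, with a median of -0.01 and 0 called or under an unadjusted p of 0.05 in the authors' deposited table.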

How the data were processed

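Total RNA of the cortex was sequenced with a directional library kit, per the labels' protocols. Build mm10, R 4.1.2 and DESeq2 1.34.0 are named without a role per the submitters' processing notes, with aligner, counter, annotation and strand setting not given in the sources used here. Per the file headers, the authors deposited per gene a mean normalized count (a signal averaged over libraries, summing to 18113972 over genes), a log2 fold change with its SE, the Wald statistic (a score) and p-values with their adjustment, taken here as deposited and called at adjusted p under 0.05 over each whole table. Depth per mouse is unknown. Each p-value of the authors' Wald test weighs a fold change against its deposited SE, and the spread between mice itself was not seen here. The 2 rows that name no gene held 17.6% of the mean normalized counts and were left out. The highest SE was 0.138 in each of the 3 comparisons, and SEs did not simply rise as counts fell. Between the mutant groups Oprm1, at 3.87 counts, had an SE of 0.086, and Oprk1, at 77.7 counts, had 0.123. A prior that draws fold changes and SEs towards 0 is not stated in the sources used here. If there was one, it could have touched well-counted genes too, with fold changes smaller and SEs narrower than without it. The 95% intervals are normal intervals from the SE. They carry this limit, as do the percentages of the wild-type level and the sizes needed for a call. Whether a prior was used was not tested.

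Positions, lengths and coding sequences are from GENCODE M21 and promoters from RefSeq (GRCm38.p6). The members and lists were chosen with earlier results of these data known. Named genes are the members, Grn, genes within 100 kb of Oprl1, up to 4 called genes a pathway list and the 5 genes nearest to Oprl1 in fold change. Pomc, Egr4, Gprasp1, Dnm1, Rorb, Emx1 and Camk2a, and the overlapping Ipcef1 and A830012C17Rik, fall outside this rule and were named after their values were seen. Matched under an older symbol were 2 list genes. From the list of other opioid signalling genes, values other than those of Pomc are not reported here in the text. Recomputed adjustments were tested on simulated data with scipy 1.17.1, pandas 2.3.3 and numpy 2.4.6 under Python 3.11.15. The simulated noise had the size of the deposited SE. Wald statistics as widely spread as those against wild type (1.49 and 1.56) were therefore not simulated, and division by the robust spread was not tested there. Alternatives were a threshold of 0.01, adjustment over genes in all 3 tables, mean normalized counts of at least 100, Wald statistics over their robust spread, centred fold changes, a minimum absolute change and coding lengths.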

Additional observations from a re-analysis of the deposited data

Results flagged for a closer look

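Among Grn, the opioid genes and the pathway lists, there were 4 genes in which the effects of the mutant genotypes against wild type differed from each other by the authors' direct test of Grn-/-;GRNtg against Grn+/-. Sstr4 differed by 0.45 ± 0.112 (adjusted p = 0.023), being at 0.10 ± 0.108 in Grn-/-;GRNtg and at -0.35 ± 0.109 in Grn+/- against wild type, in the authors' deposited tables. Ier2 differed by -0.78 ± 0.136 (adjusted p = 1.4e-05) and Dusp1 by -0.59 ± 0.138 (adjusted p = 0.0095) by the authors' deposited table. With Wald statistics over their robust spread, 1 of the 3 list genes, Ier2, was still called, and Sstr4 and Dusp1 were not. Grn differed by -1.36 ± 0.085 (adjusted p = 5.2e-53). None of the 7 opioid genes was among them, with adjusted p between 0.59 and 0.98 there.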

How the results depend on the processing

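The alternatives reuse the deposited fold changes, apart from a small shift by centring, so they bear on the calls and not on direction. Over them the adjusted p of Oprl1 lay between 0.00019 and 0.19 in Grn+/- and between 0.00078 and 0.64 in Grn-/-;GRNtg. With statistics divided by their robust spread, 0 members were called in Grn+/- and 0 in Grn-/-;GRNtg against wild type, and pathway list genes called were 0, 0 and, between the mutant groups, 1. That setting assumes that most genes did not change. Pathway list genes called in Grn+/- against wild type numbered 5 at a threshold of 0.01 and 4 where the absolute log2 fold change had to reach 0.3, against 8 as deposited. Centring on the median moved Penk in Grn+/- against wild type to -0.0062, from a value near 0. Per kb of coding sequence the mean normalized counts were 1193 for Penk, 697 for Oprl1, 601 for Pdyn, 394 for Oprd1, 265 for Pnoc, 67.9 for Oprk1 and 2.82 for Oprm1, since coding sequences are shorter than exons. A minimum mean normalized count of 100 removed Oprk1 and Oprm1. No paired analysis was possible because the tables hold comparisons and no values per mouse, and for the same reason no mouse could be left out in turn.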
